A study of Homo sapiens with 6 samples.

Results

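The genes of collagen chains, laminin chains and integrin subunits were examined in OVCAR3 cells exposed to THZ531. They were chosen by their symbols (COL, LAM or ITG followed by the chain number, and ITGAV), which gave 76 loci of the 47577 in the table, namely 44 collagens, 12 laminins, 12 integrin alpha subunits and 8 integrin beta subunits. A locus counted as expressed when 3 or more of the 6 libraries had a normalized value of 10 or higher. By this measure 55 of the 76 genes were expressed, out of 17568 expressed loci in all.

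OVCAR3 is an established line of human high-grade serous ovarian adenocarcinoma (HGSOC). THZ531 is a covalent inhibitor of CDK12 and CDK13, kinases that phosphorylate RNA polymerase II during elongation. PolyA plus RNA was sequenced from 3 libraries of cells treated with the solvent DMSO and from 3 libraries of cells treated with 200 nM THZ531, both for 6 h. The titles name THZ531, whereas the treatment protocol in the labels names THZ1 at the same dose, and the libraries are called THZ531 here. The series text describes the 3 libraries of a group as biological repeats of this single line, without saying how the cultures were separated, so the p-values measure the spread between these libraries.

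Collagens are trimers of alpha chains. Some form fibrils (types I and III), some form the network of the basement membrane (type IV), and others bind to fibrils or span the cell membrane. Laminins are heterotrimers of 1 alpha, 1 beta and 1 gamma chain that build the basement membrane with collagen IV, and integrins are receptors of 1 alpha and 1 beta subunit that attach cells to both. Epithelial cells characteristically make laminin-332, the ligand of integrin alpha3 beta1 and of the hemidesmosome integrin alpha6 beta4.

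The libraries held 53054048 to 70986130 reads on the loci. All 9 markers of serous epithelium were expressed, and 1 of them, the lineage factor PAX8, fell (11272 ± 545 in DMSO and 1241 ± 121 in THZ531, SD, n = 3). Of the 7 fibroblast markers, which include COL1A1 itself, 4 were expressed, while the defining ones DCN and LUM did not exceed 3.19 in any library, and the summed level of the list was 1315 to 1334 in DMSO and 2431 to 2708 in THZ531. Without COL1A1 the sum of the other 6 was 300.1 to 384 and 348 to 374, and none of these was called. All 4 endothelial markers were detected at low level, with a sum of 231 to 286 in DMSO and 308 to 420 in THZ531, and VWF and KDR among them rose. Of the 5 leukocyte markers 3 were expressed, the T-cell gene CD3E was at 0 in every library, and the sum was 527 to 591 in DMSO and 517 to 598 in THZ531. Whether the endothelial markers had a part in the results below was not tested. In bulk RNA, fewer cells of a type and less RNA per cell cannot be told apart.

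Levels of different genes were compared as normalized reads per kb of exon, using the merged exon length of each gene in GENCODE. Merged lengths take in the exons of all annotated transcripts (18592 bases for LAMB1 and 4647 for LAMB3). Ranks and shares therefore depend in part on the annotation. Before division by length, LAMB1 had a mean of 27634 in DMSO and LAMB3 10831. In DMSO, ITGA3, the alpha3 subunit, had the highest mean level of the 54 genes compared with 11623 per kb, which was 31.1% of their summed level. ITGB1 (3734), the beta subunit shared by most matrix receptors, and LAMA3 (3111), the alpha chain of laminin-332, were also high. ITGB5 (2636), LAMB3 (2331) and ITGB4 (2143) came next, and with COL18A1 (1529) and LAMB1 (1486) these 8 genes made up 76.5% of the summed level. Among the collagens the highest was COL18A1, a basement membrane collagen whose end fragment is endostatin, followed by COL4A1 with 640 per kb, whereas the fibrillar COL1A1 and COL3A1 had 111 and 107 per kb.

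**Figure D1:**
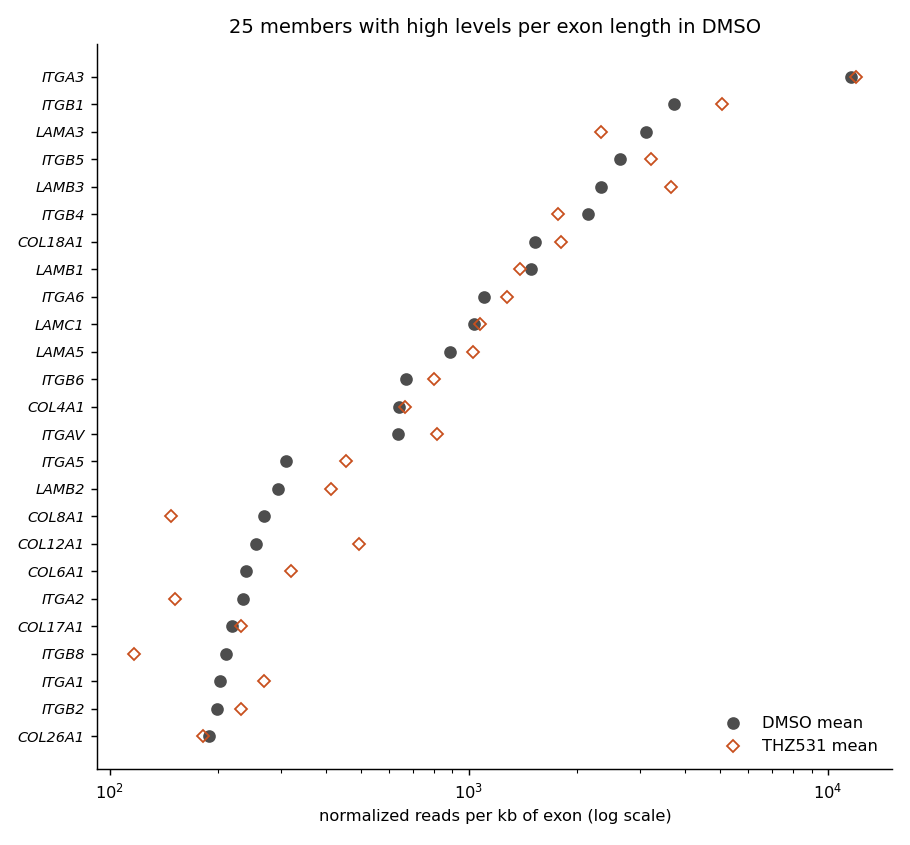
Mean level of 25 collagen, laminin and integrin genes with high levels in DMSO, as normalized reads per kb of exon on a log axis, for DMSO (filled circles) and THZ531 (open diamonds), n = 3 libraries each. ITGA3 is first with 11623 per kb in DMSO. COL12A1 lies further right in THZ531 (256 and 493 per kb), and ITGB8 further left (210 and 116 per kb).

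Of the 76 genes, 21 stayed below the minimum, and 6 of them (COL5A2, COL4A4, COL19A1, COL9A1, COL10A1 and COL22A1) were at 0 in all 6 libraries. Just outside the minimum, ITGA10, a collagen receptor subunit, had 11.9, 9.28 and 12.0 in DMSO and 2.52, 6.82 and 1.14 in THZ531. Just inside was ITGB7, a subunit known from lymphocytes, which is described below. The other 54 expressed genes reached 10 in every library.

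THZ531 changed few of these genes by a large factor. With both thresholds of the study in limma (1.5-fold or more, unadjusted p up to 0.05), 6 of the 55 expressed genes rose (COL1A1, COL12A1, LAMB3, COL7A1, COL21A1 and COL3A1) and 4 fell (ITGB7, COL8A1, ITGB8 and ITGA2). These 10 genes are 18.2% of the 55, whereas 39.5% of all 17568 loci passed the same thresholds, 15.7% upwards and 23.9% downwards. Changes below 1.5-fold were common: at an adjusted p up to 0.05 (limma, Benjamini-Hochberg over all loci), 34 of the 55 genes (61.8%) passed whatever their fold change, 22 upwards and 12 downwards, against 68.6% of all loci, and 24 of the 34 differed by less than 1.5-fold. The median log2 fold change of the 55 was 0.12 and that of all loci -0.01. Collagens had 5 genes that rose and 1 that fell among 28 expressed, laminins had 1 and 0 among 11, and integrins had 0 and 3 among 16 in limma. At an adjusted p up to 0.05 without the fold threshold, 3 laminins were lower and 8 integrins were higher, each by less than 1.5-fold, and edgeR and DESeq2 likewise called 0 laminins lower and 0 integrins higher.

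**Figure D2:**
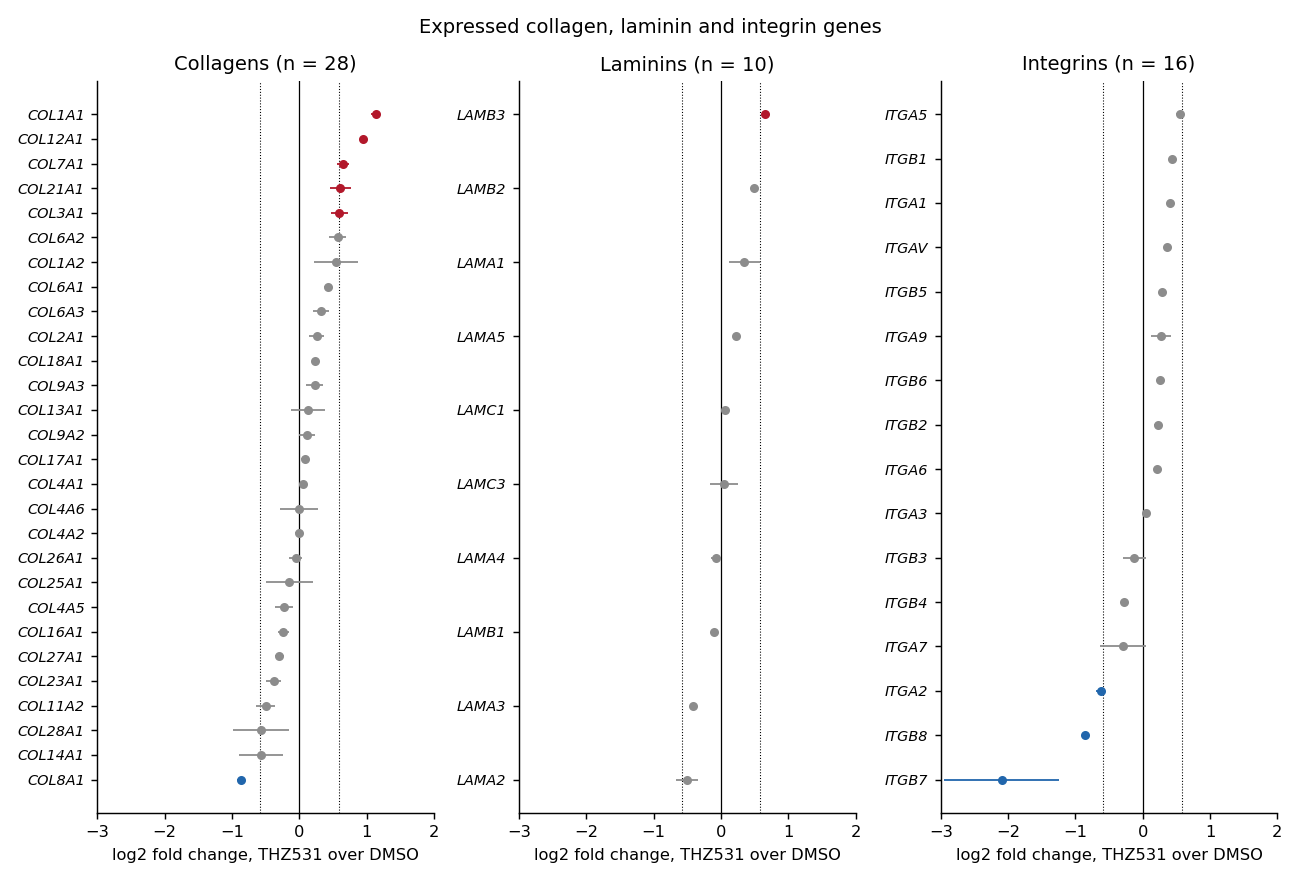
Log2 fold change, THZ531 over DMSO, of 28 collagen, 10 laminin and 16 integrin genes that were expressed, from limma on log2(value + 1), with the standard error as a bar (n = 3 libraries per group). Dotted lines mark a 1.5-fold change, and genes past both thresholds are red (6 genes, higher) or blue (4 genes, lower). The integrins lie between -2.10 (ITGB7) and 0.55 (ITGA5).

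The direction of these counts depends on how the libraries are scaled. The DESeq2 size factors used by the authors left larger sums in THZ531 than in DMSO. When each library was scaled to the same total, the median of all loci moved by -0.24, 2 members rose and 10 fell, with 9.23% of all loci up and 32.1% down. When the libraries were scaled to RPL34, the ribosomal protein transcript that served as the reference in the study's quantitative PCR, the median moved by -0.50, 1 member (COL1A1) rose and 17 fell, with 5.87% of all loci up and 43.1% down. Scaling shifts all loci almost alike, so the median of the members relative to all loci hardly moved by construction (higher by 0.13, 0.11 and 0.11). With the same total the 2 genes were COL1A1 and COL12A1. In each alternative in which they were tested, the 6 genes named as rising had a log2 fold change above 0 and the 4 named as falling had a negative one.

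The fibrillar collagen COL1A1, the alpha1 chain of type I collagen (chr17:50183289-50201632, hg38), gave the largest increase. Its values were 1034, 1010 and 942 in DMSO and 2057, 2338 and 2176 in THZ531. The groups were far apart, without overlap. The log2 fold change was 1.14 ± 0.06 (SE, n = 3 per group), with an adjusted p of 2.77e-10 in limma, and it ranged from 0.64 to 1.18 over the alternatives. The partner chain COL1A2 was low, with 37.4 ± 8.33 (SD, n = 3) in DMSO and 56.7 ± 19.7 in THZ531, and did not pass (log2 fold change 0.55, adjusted p = 0.159 in limma). COL3A1, the chain of type III collagen, had 653, 600 and 919 in DMSO and 1176, 1105 and 959 in THZ531. The third DMSO library was close to the third THZ531 library without overlap. With a log2 fold change of 0.60 ± 0.12 and an adjusted p of 0.000495 in limma, COL3A1 lay just past the fold threshold. It fell short of it after scaling to the upper quartile (0.58), with edgeR (0.55), with DESeq2 (0.58) and without either of DMSO replicates 1 and 2 or THZ531 replicates 1 and 2 (0.47 to 0.58).

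COL12A1, COL7A1 and COL21A1 also rose, whereas other fibril-associated collagens did not pass both thresholds, namely COL14A1 (log2 fold change -0.57), COL16A1 (-0.24), COL9A2 (0.12) and COL9A3 (0.23). COL14A1 passed as lower with scaling to the same total or to RPL34, and COL16A1 with scaling to RPL34. COL12A1, which decorates collagen I fibrils, had 4997, 4690 and 4783 in DMSO and 9300, 9433 and 9142 in THZ531. Its replicates were tight and the groups well separated, and the log2 fold change was 0.95 ± 0.04 with an adjusted p of 8.21e-12 in limma. COL7A1, the chain of the anchoring fibrils below epithelia, had 374, 329 and 363 in DMSO and 547, 551 and 573 in THZ531, without overlap (0.65 ± 0.09, adjusted p = 1.52e-05 in limma). COL21A1, another fibril-associated chain, had 106, 134 and 127 in DMSO and 185, 192 and 181 in THZ531. These groups did not overlap either (0.61 ± 0.16, adjusted p = 0.00322 in limma), but the fold change was below 1.5 with a pseudocount of 10 (0.58) and without DMSO replicate 1 (0.51). After scaling to RPL34 the log2 fold change was 0.45 for COL12A1, 0.16 for COL7A1, 0.12 for COL21A1 and 0.10 for COL3A1, and none of the 4 passed.

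With the authors' size factors and all 6 libraries, COL8A1, a short-chain collagen of vascular and subendothelial matrices (chr3:99638594-99799217), was the only expressed collagen called lower. It had 2598, 2459 and 2544 in DMSO and 1344, 1450 and 1379 in THZ531. All THZ531 libraries lay far below all DMSO libraries, and the log2 fold change was -0.86 ± 0.05 with an adjusted p of 8.62e-10 in limma. Its range over the alternatives was -1.36 to -0.84. With scaling to the same total 4 collagens were called lower, and with scaling to RPL34 8.

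The other collagens with a mean of at least 1000 did not pass both thresholds. COL18A1 had a mean of 12942 ± 572 (SD, n = 3) in DMSO and 15251 ± 225 in THZ531, a log2 fold change of 0.24. COL6A1, a chain of the beaded filament collagen VI, had 1324 ± 67.0 and 1774 ± 91.2, a log2 fold change of 0.42. COL27A1, a fibrillar collagen of cartilage, had 1419 ± 70.1 and 1156 ± 63.4, a log2 fold change of -0.30, and passed as lower with scaling to RPL34 (-0.79). The groups of these 3 genes did not overlap. COL17A1, the transmembrane collagen of hemidesmosomes, had 1532 ± 10.8 in DMSO and 1621 ± 39.0 in THZ531 (0.08, no overlap).

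The collagen IV genes COL4A1 and COL4A2, which lie head to head on chromosome 13, showed little difference. COL4A1 had 9543, 9492 and 9123 in DMSO and 9915, 9370 and 9845 in THZ531, so the groups overlapped (log2 fold change 0.05, adjusted p = 0.267 in limma). COL4A2 had 2472, 2297 and 2213 in DMSO and 2321, 2377 and 2230 in THZ531, also with overlap (-0.01, adjusted p = 0.876 in limma). The ratio of COL4A2 to COL4A1 within a library was 0.248 ± 0.010 (SD, n = 3) in DMSO and 0.238 ± 0.014 in THZ531. The stretch that the RefSeq promoter windows of both genes share is shown because the pair is transcribed in opposite directions from it, with 126 bases between the start sites (110307157 for COL4A1 on the minus strand and 110307284 for COL4A2 on the plus strand). It is chr13:110307108-110307333 of GRCh38.p14, plus strand, 226 bases, with CCAAT and GGGCGG in capitals.

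COL4A1 and COL4A2: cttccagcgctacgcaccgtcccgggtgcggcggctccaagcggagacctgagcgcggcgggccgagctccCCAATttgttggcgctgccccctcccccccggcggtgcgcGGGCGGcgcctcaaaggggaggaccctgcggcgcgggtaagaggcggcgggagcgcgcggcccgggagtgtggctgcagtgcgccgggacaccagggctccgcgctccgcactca

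Of these bases 76.5% are G or C. Both motifs are common, since over 27305 RefSeq promoter windows of 300 bases 35.7% hold CCAAT and 44.6% hold GGGCGG on either strand. Some other neighbouring members differed more. ITGA1 and ITGA2 are separated by 30.1 kb on chromosome 5 and lie on the same strand, with log2 fold changes of 0.41 and -0.63. ITGA3 and COL1A1, 92.8 kb apart on chromosome 17, had 0.05 and 1.14.

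The beta and alpha chains of laminin-332 differed from each other in their response. LAMB3, the beta chain (chr1:209614870-209652466), had 10905, 10655 and 10934 in DMSO and 16289, 16980 and 17757 in THZ531. The groups were clearly separated, and LAMB3 rose with a log2 fold change of 0.65 ± 0.04 and an adjusted p of 3.65e-10 in limma. LAMA3, the alpha chain (chr18:23689443-23955066), had 44516, 44119 and 46596 in DMSO and 32663, 33113 and 35719 in THZ531. It was lower in each THZ531 library, by less than 1.5-fold (-0.41 ± 0.04, adjusted p = 8.03e-08 in limma), and it passed as lower with scaling to the same total (-0.66) or to RPL34 (-0.91). LAMB3 did not pass with the same scalings (0.41 and 0.16).

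Ratios of genes within a library do not depend on the scaling, so partner chains were also compared in this way. The ratio of LAMB3 to LAMA3 was 0.245, 0.242 and 0.235 in DMSO and 0.499, 0.513 and 0.497 in THZ531, a log2 change of 1.06 ± 0.02 (SE). The DMSO and THZ531 ratios did not overlap. In 7 of the 14 pairs of partner genes examined the groups did not overlap, and each of these had p = 0.1 in a two-sided exact permutation test, the smallest p that 3 against 3 libraries allow, so that this design cannot reach the 0.05 level for a single ratio (adjusted over the 14 pairs, p = 0.2 by the exact permutation test). The share of arbitrary gene pairs without overlap was not computed, so 7 of 14 is not given as a trait of partner genes.

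**Figure D3:**
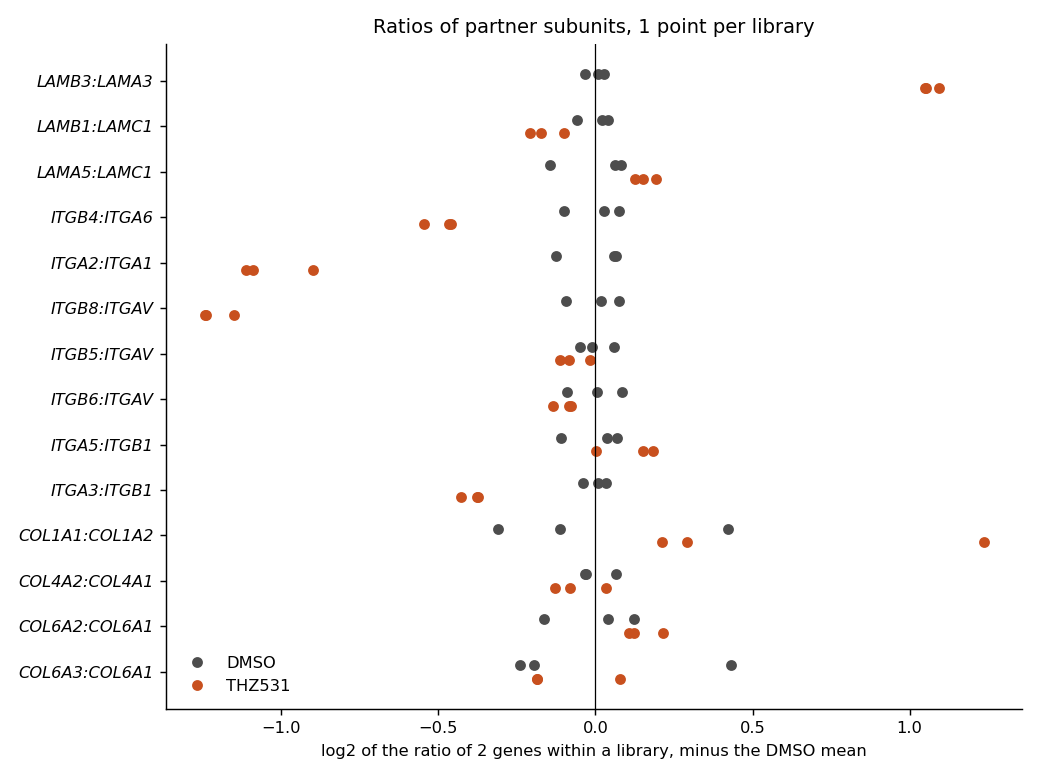
Ratio of the normalized values of 2 partner genes within each library, as log2 and minus the DMSO mean, for 14 pairs (grey, 3 DMSO libraries; orange, 3 THZ531 libraries). The libraries of the groups lie apart for 7 pairs, with LAMB3:LAMA3 at 1.06 and ITGB8:ITGAV at -1.21 as the extremes, and they overlap for pairs such as COL4A2:COL4A1 (-0.06).

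The other laminin chains with a mean of at least 1000 were LAMB2, LAMA5, LAMC1, LAMB1 and LAMA4. LAMB2, the beta chain of mature basement membranes, had 2013 ± 111 (SD, n = 3) in DMSO and 2831 ± 95.7 in THZ531, a log2 fold change of 0.49. LAMA5, the alpha chain of laminin-511, had 12635 ± 667 and 14689 ± 538 (0.22). LAMC1, the gamma chain that most laminins share, had 8720 ± 306 and 9095 ± 287 (0.06), and its groups overlapped. LAMB1, the beta chain of laminin-511, had 27634 ± 55.6 and 25802 ± 160 (-0.10, no overlap), and LAMA4, an alpha chain known from vessels, had 1114 ± 93.2 and 1053 ± 43.2 (-0.08). None of the 5 passed both thresholds, although LAMB1 passed as lower with scaling to RPL34 (-0.59). The ratio of LAMB1 to LAMC1 was 3.17 ± 0.11 in DMSO and 2.84 ± 0.11 in THZ531, and the ratio of LAMA5 to LAMC1 was 1.45 ± 0.12 and 1.61 ± 0.04, both without overlap.

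Among the integrin alpha subunits, ITGA2 fell. ITGA2 encodes the alpha2 subunit of a collagen receptor (chr5:52989337-53094779), and its values were 1990, 1715 and 1866 in DMSO and 1121, 1171 and 1317 in THZ531. The groups did not overlap, and the log2 fold change was -0.63 ± 0.07 with an adjusted p of 1.06e-06 in limma. Without DMSO replicate 1 or THZ531 replicate 1 it missed the fold threshold (-0.58 in both cases). ITGA1, the alpha1 subunit of the other main collagen receptor, had 3873, 3798 and 3621 in DMSO and 4918, 5055 and 4983 in THZ531. All THZ531 libraries were higher, by less than 1.5-fold (0.41 ± 0.04, adjusted p = 3.75e-07 in limma). The file counts ITGA1 together with PELO, a gene inside it that acts in ribosome rescue, so its value cannot be assigned to ITGA1 alone. The ratio of ITGA2 to the ITGA1 locus was 0.494 ± 0.036 in DMSO and 0.241 ± 0.020 in THZ531, without overlap.

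The remaining alpha subunits with a mean of at least 1000 did not pass both thresholds. ITGA5, the alpha subunit of the fibronectin receptor, came nearest with 2329, 2338 and 2186 in DMSO and 3155, 3403 and 3481 in THZ531. The groups did not overlap (0.55 ± 0.05, adjusted p = 1.13e-07 in limma), and without THZ531 replicate 1 ITGA5 passed with 0.59. ITGAV, the alpha subunit of the receptors for vitronectin and latent TGF-beta, had 12306 ± 241 (SD, n = 3) and 15761 ± 198 (0.36). ITGA6, the laminin receptor subunit of hemidesmosomes, had 7378 ± 482 and 8521 ± 75.3 (0.21). The groups of ITGAV and ITGA6 did not overlap. ITGA3, the highest of the members, had 113932 ± 320 in DMSO and 117545 ± 566 in THZ531 (0.05, adjusted p = 0.191 in limma), also without overlap.

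Among the beta subunits, ITGB8 fell. ITGB8, which pairs with ITGAV in a receptor that activates TGF-beta (chr7:20330702-20415754), had 3303, 3211 and 3054 in DMSO and 1754, 1708 and 1833 in THZ531. The groups did not overlap, and the log2 fold change was -0.85 ± 0.05 with an adjusted p of 6.14e-10 in limma. An antisense gene, ITGB8-AS1, overlaps ITGB8 by 1061 bases and had 73.9 in DMSO and 218 in THZ531. The ratio of ITGB8 to ITGAV was 0.273, 0.262 and 0.243 in DMSO and 0.110, 0.110 and 0.117 in THZ531. The ratio was lower in each THZ531 library, a log2 change of -1.21 ± 0.06. As a share of the 5 possible partners of ITGAV per exon length, ITGB8 made up 2.90% ± 0.16 (SD, n = 3) in DMSO and 1.27% ± 0.03 in THZ531. The others were ITGB1 with 51.3% ± 0.77 and 54.9% ± 0.88, ITGB5 with 36.2% ± 0.44 and 34.9% ± 0.80, ITGB6 with 9.17% ± 0.30 and 8.66% ± 0.14, and ITGB3 with 0.34% ± 0.05 and 0.25% ± 0.03. By this measure ITGB8 was a minor partner at the RNA level in both groups. The shares depend on the merged exon lengths (14561 bases for ITGB1, 6515 for ITGB5 and 15156 for ITGB8). ITGB1 is also shared by other alpha subunits, so these are shares of beta subunit RNA and not of receptors with ITGAV.

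ITGB7 was called lower near the limit of detection. It had 8.73, 13.0 and 22.3 in DMSO and 0, 11.4 and 2.28 in THZ531, which are 11, 14 and 28 reads and 0, 10 and 2 reads. The groups overlapped, since DMSO replicate 1 was below THZ531 replicate 2. The log2 fold change was -2.10 ± 0.85 with an adjusted p of 0.0384 in limma, and the call was lost without a variance trend, with DESeq2 (-1.67) and without THZ531 replicate 1 (-1.21). Without DMSO replicate 2, DMSO replicate 3 or THZ531 replicate 2 the gene fell below the minimum. ITGB7 overlaps ZNF740 on the opposite strand by 3820 bases, and ZNF740 had means of 3007 in DMSO and 869 in THZ531. The kit keeps the strand, but the strand setting of the counting is not given in the sources used here, and whether reads of ZNF740 reached ITGB7 was not tested.

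The other beta subunits did not pass both thresholds. ITGB1 had 54003, 53015 and 56088 in DMSO and 75035, 72911 and 72942 in THZ531. Each THZ531 library was higher, by less than 1.5-fold (0.44 ± 0.03, adjusted p = 6.56e-09 in limma), and the ratio of ITGA3 to ITGB1 was 2.10 ± 0.05 (SD, n = 3) in DMSO and 1.60 ± 0.03 in THZ531, without overlap. ITGB4, the long beta subunit of hemidesmosomes, had 14599, 14334 and 14542 in DMSO and 11561, 12233 and 12018 in THZ531, and was lower in each THZ531 library (-0.28 ± 0.03, adjusted p = 2.70e-06 in limma). With scaling to RPL34 it passed as lower (-0.77). The ratio of ITGB4 to its partner ITGA6 was 1.97 ± 0.12 in DMSO and 1.40 ± 0.05 in THZ531, without overlap. ITGB5 and ITGB6, both partners of ITGAV, had log2 fold changes of 0.29 and 0.26, and their ratios to ITGAV overlapped between the groups. ITGB2, the beta subunit known from leukocytes, had 1451 ± 47.2 in DMSO and 1691 ± 66.9 in THZ531 (0.22, no overlap). It overlaps ITGB2-AS1 by 7804 bases, which had 199 in DMSO and 545 in THZ531.

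**Figure D4:**
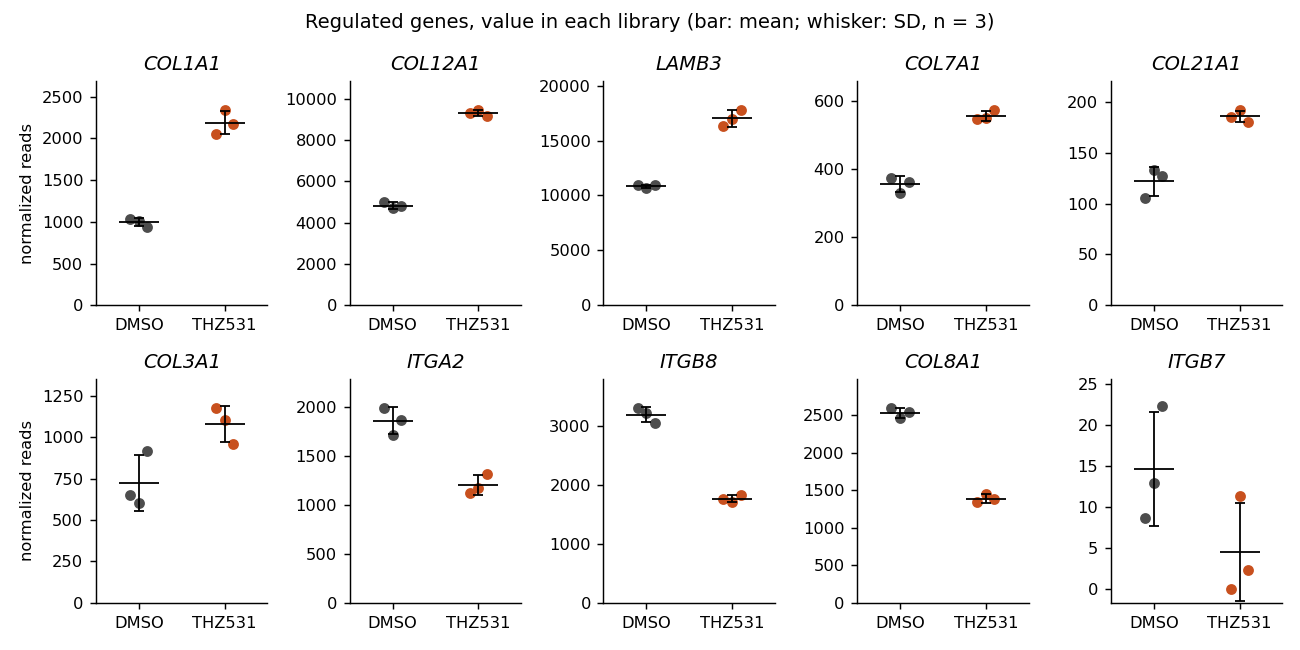
Normalized reads of the 10 collagen, laminin and integrin genes past both thresholds in each library (grey, DMSO; orange, THZ531), with the mean and SD (n = 3). The libraries of the groups lie apart for 9 of the 10 genes and overlap for ITGB7, whose values are between 0 and 22.3. The genes were chosen by fold change and p in these same libraries, so the separation follows in part from the choice. Of all 55 expressed members, 35 had groups without overlap, and the share over all loci was not computed.

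A further 22 expressed members had means between 20.7 and 719. Their log2 fold changes were between -0.57 (COL14A1) and 0.57 (COL6A2), 11 above 0 and 11 below 0. None passed both thresholds with the authors' size factors and all 6 libraries, and 7 had an adjusted p up to 0.05 in limma. Scaled to the same total, COL23A1, LAMA2, COL11A2 and COL14A1 passed as lower. With scaling to RPL34 these also passed as lower, as did COL16A1, ITGA7, COL28A1, COL4A5 and ITGB3. With 1 library left out, COL1A2, COL6A2, COL11A2, COL14A1, COL28A1 and ITGA7 each passed in some fits. Over all members, 9 overlapped another expressed gene, among them ITGB7 and ITGB8 of the 10 that passed.

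Members were long genes, with a median span of 85.4 kb against 28.0 kb for the 15278 expressed loci with a symbol. The 25 members over 100 kb had a median log2 fold change of -0.01, and the 30 shorter ones had 0.22. Among all loci with a symbol the medians were -0.07 and -0.01. Across genes, which are not independent replicates, the Spearman correlation of span with log2 fold change was -0.32 for the members and -0.06 for all loci with a symbol. Of the 25 long members, COL12A1 (122 kb) and COL21A1 (338 kb) rose, and COL8A1 (161 kb) and ITGA2 (105 kb) fell. Of the 2685 expressed loci with a symbol over 100 kb, 329 rose and 656 fell. Among the 30 shorter members 4 rose and 2 fell, and among the 12593 shorter loci with a symbol 1710 rose and 2961 fell.

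The table also lists loci without a gene symbol, and 39 of these lie within the coordinates of 28 members. Of the 39, 7 were expressed, 4 of which rose and 2 fell. Both loci in ITGB5, which are among those that rose, met the minimum only through the THZ531 libraries. Among all 2290 expressed loci without a symbol, 31.1% rose and 25.3% fell. The loci inside ITGB5, COL27A1 and ITGA3 lie in introns of these genes, whose own values did not pass both thresholds.

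In intron 10 of ITGB5, 2 loci rose. GSHG0031666 (chr3:124791119-124793104, hg38) is 3284 to 5269 bases from the 5′ splice site of this intron of 22475 bases. Its values were 6.35, 1.86 and 7.98 in DMSO and 145, 194 and 172 in THZ531. The THZ531 libraries were all far above the DMSO libraries, and the log2 fold change was 4.89 ± 0.42 (SE) with an adjusted p of 3.48e-08 in limma. GSHG0031665 (chr3:124782990-124786006), further along the same intron, had 9.53, 1.86 and 3.19 in DMSO and 57.9, 76.2 and 45.5 in THZ531. These groups did not overlap either (3.57 ± 0.52). In DMSO the counts were 8, 2 and 10 reads for GSHG0031666 and 12, 2 and 4 reads for GSHG0031665. Both loci were below 10 in every DMSO library and met the minimum only through THZ531. Their rise and the lack of overlap are therefore partly built into their being counted as expressed. The ITGB5 gene itself had 17173 ± 576 (SD, n = 3) in DMSO and 20923 ± 604 in THZ531.

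In intron 3 of COL27A1, GSHG0043720 (chr9:114171296-114173608) had 32.5, 17.6 and 41.5 in DMSO and 93.2, 130 and 97.8 in THZ531. The groups did not overlap (1.84 ± 0.31), while COL27A1 itself was slightly lower, as given above. GSHG0045259 (chr9:134843201-134844545) lies within COL5A1, a chain of fibrillar collagen V that was not expressed, and its identifier places it on the opposite strand. It had 6.35, 16.7 and 3.19 in DMSO and 78.1, 88.7 and 70.5 in THZ531, without overlap (3.29 ± 0.47).

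The other direction was seen in ITGA3. GSHG0018337 (chr17:50082638-50084914), in intron 23, had 742, 953 and 954 in DMSO and 365, 281 and 344 in THZ531. The groups were well apart (-1.42 ± 0.12), while ITGA3 itself had a log2 fold change of 0.05. GSHG0009113 (chr12:55688448-55691119), within ITGA7 and placed on the opposite strand, had 46.0, 26.0 and 21.5 in DMSO and 10.1, 22.7 and 6.83 in THZ531. The groups overlapped (-1.27 ± 0.49, adjusted p = 0.032 in limma), and the call was lost without a variance trend, without DMSO replicate 1 (-0.96), without THZ531 replicate 1 (-1.17) and without THZ531 replicate 3 (-0.92). GSHG0027856 in intron 15 of COL18A1 did not pass (-0.29), except as lower with scaling to RPL34 (-0.78).

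**Figure D5:**
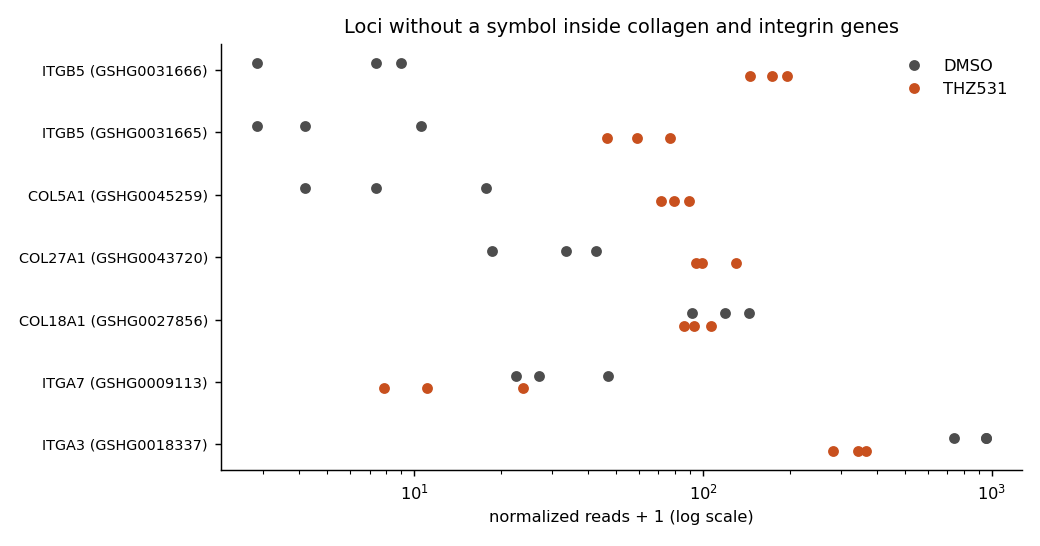
Normalized reads plus 1, on a log axis, of the 7 expressed loci without a symbol inside members, in each library (grey, DMSO; orange, THZ531). Both loci in ITGB5 and those in COL27A1 and COL5A1 are higher in all 3 THZ531 libraries, the locus in ITGA3 is lower in all 3, and the groups overlap for the loci in ITGA7 and COL18A1. Both loci in ITGB5 met the minimum only through THZ531.

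The last 60 bases are shown for 2 of the loci in introns that rose, since a cleavage and polyadenylation signal would be found near the end of a transcript. Whether these loci end where a transcript ends was not tested. The end of GSHG0031665, which also rose in ITGB5, is not shown. The strand of GSHG0031666 is listed by the study as minus, that of ITGB5, and for GSHG0043720 the strand follows from identifier order, a rule that matched 198 of 200 loci with a listed strand. AATAAA, searched on that strand, is in capitals.

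GSHG0031666 in ITGB5, chr3:124791119-124791178, minus strand: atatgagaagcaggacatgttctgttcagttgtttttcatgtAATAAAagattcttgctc

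GSHG0043720 in COL27A1, chr9:114173549-114173608, plus strand: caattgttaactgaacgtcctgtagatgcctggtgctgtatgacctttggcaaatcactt

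GSHG0031666 holds AATAAA in its last 60 bases, ending 12 bases before the end of the locus, and GSHG0043720 holds none there. The share was 20.4% among the 10040 loci without a symbol that could be placed on a strand and had at least 60 bases. It was 27.5% among the 2141 expressed ones of these, and the match is given as a description of the sequence.

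The genes that make, bind and cut the matrix were described from lists. Of 11 expressed partners of collagen and laminin in the basement membrane and matrix, 1 rose and 1 fell. FBN2, a fibrillin, rose (1509 ± 75.5 in DMSO and 2274 ± 136 in THZ531, SD, n = 3), and HSPG2, the basement membrane proteoglycan perlecan, fell (1748 ± 171 and 1158 ± 73.8). Of 24 expressed genes of collagen synthesis and cross-linking, 3 rose and 2 fell, with a median log2 fold change of 0.18. LOX, the lysyl oxidase that cross-links collagen, rose from 240 ± 44.6 to 427 ± 37.7, and PLOD2, a lysyl hydroxylase, rose from 6155 ± 212 to 10280 ± 194. ADAMTS14, which removes the N-terminal propeptide, fell from 407 ± 44.7 to 220 ± 37.8, and LOXL3, a relative of LOX, fell from 175 ± 18.0 to 98.1 ± 9.75. MIA3, which loads procollagen for export, was the other gene of this list that rose.

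Of 31 expressed integrin adaptors and focal adhesion genes, 2 rose and 8 fell, with a median log2 fold change of -0.05. TNS3, a tensin that links integrins to actin, fell from 3978 ± 172 (SD, n = 3) to 1371 ± 31.6, and the adaptor CRK fell from 1705 ± 55.5 to 650 ± 21.4. FERMT3, the kindlin known from blood cells, fell from 27.0 ± 8.29 to 3.87 ± 1.17, and TNS1, another tensin, fell from 27.8 ± 10.3 to 10.5 ± 3.81. Both are near the minimum. FERMT3 was below 10 in every THZ531 library (2.52, 4.55 and 4.55) and met the minimum only through DMSO, so its fall is partly built into that rule. TNS1 reached 10 in THZ531 only in replicate 3 (14.8). The others that fell were TGFB1I1, BCAR1, VCL and TNS2, while FERMT2, the widely expressed kindlin, and LIMS1, an adaptor of integrin-linked kinase, rose. Of 11 other matrix receptors, 2 rose, namely LRP1 (45.7 ± 5.86 and 109 ± 20.2) and the syndecan SDC2 (7523 ± 185 and 11877 ± 590), and the other 9 did not pass. Of 21 expressed proteases and inhibitors, 3 rose and 18 did not pass. Those that rose were PLAUR, the urokinase receptor (2950 ± 40.6 and 4616 ± 158), the gelatinase MMP9 (67.6 ± 8.71 and 102 ± 14.3) and the stromelysin MMP3, whose groups overlapped. These lists were chosen with the results known and are given as counts beside the 15.7% of all loci that rose and the 23.9% that fell.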

How the data were processed

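RNA-seq of OVCAR3 cells was analysed from the deposited table of normalized signal, 3 DMSO and 3 THZ531 libraries. According to the study's methods, the authors mapped paired-end reads of polyA plus libraries to hg38 with STAR (2.7.5a in the submitters' processing notes, while the methods name another version), counted them with featureCounts on the FAST DB annotation and divided the counts by DESeq2 size factors, and this signal was deposited. Dividing by the smallest step of a library made 100% of its values whole (tolerance 0.1 read), so whole reads were recovered. The libraries hold 53054048 to 70986130 reads on loci.

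Values were tested on log2(value + 1) with limma 3.58.1 (trended variance, R 4.3.3) over the 17568 loci that reached 10 in 3 or more libraries. This scale understates the change of low genes. Regulated genes differed 1.5-fold or more with an unadjusted p up to 0.05. On recovered reads, edgeR 4.0.16 (quasi-likelihood) called 6863 loci and DESeq2 1.42.0 called 6788, against 6948 with limma. The script was tested on simulated counts. Ratios were compared by exact permutation tests (scipy 1.17.1).

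Named are all members past both thresholds and all others with a group mean of at least 1000, and from each other list up to 4 genes with the largest change and no overlap, with other genes of a count named after their values were seen. Neighbouring pairs, overlapping genes and sequences shown were also chosen after values were seen. The members and lists were chosen with earlier results of these data known. Exon lengths and introns come from GENCODE 44, and promoters from RefSeq, which matched 55 of the 76 symbols. A member that meets this rule is included in the counts but not reported here, nor in levels, ratios or plots. CTAGE5, of the collagen synthesis list, was not matched by symbol. The alternatives were 3 other scalings, pseudocounts of 0.1 and 10, no minimum and a minimum of 50, a replicate block, a 2-fold threshold, the adjusted p, limma with no variance trend, DESeq2, edgeR and leaving out each library, with the minimum applied again or, added after seeing the data, with the loci of all 6 libraries kept.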

Additional observations from a re-analysis of the deposited data

How the results depend on the processing

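The 10 called genes kept their direction in every alternative that tested them, and COL1A1 passed in each. Scaling changed the counts by construction. With the same total, 2 members rose and 10 fell (median -0.14). The log2 fold change was above 0 in 20 of 56 members, against 34 of 55 with the authors' size factors. Of the genes named above, 8 uncalled ones turned negative: COL17A1 (-0.16), COL18A1 (-0.0052), COL4A1 (-0.19), ITGA3 (-0.20), ITGA6 (-0.033), ITGB2 (-0.022), LAMA5 (-0.025) and LAMC1 (-0.18). With RPL34, 1 rose and 17 fell (median -0.39), and 9 of 56 members were above 0. Of the genes named above, 15 turned negative: COL17A1 (-0.41), COL18A1 (-0.26), COL4A1 (-0.44), COL6A1 (-0.071), ITGA1 (-0.087), ITGA3 (-0.45), ITGA6 (-0.28), ITGAV (-0.14), ITGB1 (-0.055), ITGB2 (-0.27), ITGB5 (-0.21), ITGB6 (-0.23), LAMA5 (-0.28), LAMB2 (-0.00016) and LAMC1 (-0.43). COL4A2 turned positive without DMSO replicate 1 (0.034) and without THZ531 replicate 3 (0.015), both with and without the loci kept, and its lowest value with 1 library left out was -0.046 (without DMSO replicate 3). A fold change of 2 left 1 gene that rose and 1 that fell. The median was 0.055 without a minimum, 0.15 with a minimum of 50, 0.060 with edgeR and 0.082 with DESeq2, and the cause was not tested. Leaving out 1 library gave 4 to 7 that rose, 2 to 5 that fell (2 to 6 with the loci kept) and medians of 0.10 to 0.16 (0.094 to 0.16). The fewest that fell, 2, were left without THZ531 replicate 1, where ITGA2 and ITGB7 were lost. The replicate numbers do not pair the libraries (correlations of same-numbered deviations 0.0017, 0.019 and -0.039), and with the replicate block 6 rose and 4 fell, with a median of 0.12. Depth limits genes near 10, such as ITGB7.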
